A study of Mus musculus with 11 samples.

Results

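Enzymes of xenobiotic metabolism were examined in the newborn main olfactory epithelium (MOE) of wild type and Bcl11b knockout (KO) mice. Members were chosen by name: every probe set whose array annotation gave exactly 1 gene symbol that began with Cyp1, Cyp2, Cyp3, Cyp4, Gsta, Gstm, Gstp, Gstt, Gsto, Ugt1, Ugt2, Sult or Fmo, or that was Nqo1, Por or Cbr2, and whose mean signal over the 11 arrays was at least 20. This gave 104 probe sets of 74 genes, among 33662 probe sets with a sufficient signal and 45101 in all, and 15133 genes had such a probe set. Before the signal minimum there were 156 probe sets of 115 genes, so 52 probe sets were too dim, and 41 genes had no other.

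RNA came from whole dissected MOE of BALB/c mice at postnatal day 0, with 1 array per preparation. The 5 wild type (WT) preparations were all from males, and the 6 KO preparations were from 4 males and 2 females (KO 3 and KO 6). The KO is a conventional one that removes Bcl11b, a zinc finger transcription factor, from the whole body, and the animals were born to heterozygous parents, so that effects within the epithelium and effects from elsewhere in the body cannot be told apart. Labels give no litter or dissection day, and p-values therefore measure the spread between these preparations, which may be technical in part.

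The nose meets inhaled chemicals before any other tissue does, and its olfactory epithelium is rich in enzymes that modify them. Cytochrome P450s and flavin-containing monooxygenases (FMOs) oxidize lipophilic compounds, reductases act on quinones and carbonyls, and sulfotransferases (SULTs), UDP-glucuronosyltransferases (UGTs) and glutathione S-transferases (GSTs) then attach a polar group. In the MOE these enzymes are known mainly from sustentacular cells, which support the olfactory sensory neurons (OSNs), and from Bowman's glands, and they are also thought to clear odorants.

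The name rule took in some genes of other function. Fmod, with 6 probe sets, encodes fibromodulin, a collagen-binding matrix protein and no FMO. The 9 genes of the P450 families Cyp11, Cyp20, Cyp24, Cyp26, Cyp27, Cyp39 and Cyp46 act mostly on steroids, retinoids, vitamin D or cholesterol, and Cyp20a1 has no well-known substrate. Without Fmod there were 98 probe sets of 73 genes. Por, the electron donor of microsomal P450s, had no probe set naming it in the annotation used here, and 9 probe sets that name several family genes, among them those of Ugt1a, Ugt2a1 with Ugt2a2, and Cyp2a5 with Cyp2a4, were no members. Of the 104, 17 carry a suffix that marks probes shared with other transcripts, which matters most for the closely related Gstm and Cyp2 genes. At the signal minimum, Sult2a8 (20.1), Cyp24a1 (20.5) and Fmo4 (20.9) lay just inside, and Cyp2b19 (19.2), Cyp4a31 (19.2) and Cyp4f41-ps (19.0) just outside.

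Values are signals on a linear scale, set by the authors so that 1 GAPDH probe set reads 10000 on every array. Differences are KO minus WT of log2(signal + 16), which understates changes of dim probe sets, and a probe set is said to have passed when its limma p, adjusted over all 33662, was under 0.05. Over all of them 82 were higher and 71 lower in the KO, and the median difference was 0.047. Pairs of arrays correlated between 0.954 and 0.985 across probe sets. The GAPDH 3'/5' ratio, which rises as RNA degrades, was 1.88 to 2.27 in WT and 1.82 to 2.70 in KO, KO 3 and KO 2 having the most. Markers of mature OSNs averaged 10.1 to 10.5 in WT and 9.46 to 9.91 in KO on the log2 scale, without overlap, and 6 of 18 probe sets of that list were lower, although both probe sets of Omp, the defining marker, had differences (-0.67 and -0.57) that did not pass. Sustentacular markers averaged 10.6 to 10.9 in WT and 10.6 to 11.0 in KO, and 0 of 18 probe sets passed in limma, with 4 at an unadjusted p under 0.05. Among those 4, Sec14l3 (-0.32 and -0.32) and Hepacam2 (-0.42) had negative differences, and a dim probe set of Notch2 a positive one (0.60). Since the tissue was not separated into cell types, fewer cells of a type and less RNA per cell cannot be told apart on these arrays. On tissue sections the study counted fewer Omp-positive cells in the ventral MOE of the KO, and no such fall in the dorsal MOE.

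Sult1d1 was the one gene of the 74 with a probe set that passed, and it lay lower in the KO. Sult1d1 encodes a cytosolic sulfotransferase that acts on phenols and catecholamines. On its brighter probe set the WT signals were 3085.0, 3886.9, 3062.1, 2924.7 and 2524.7, while the KO signals ran from 1334.9 (KO 3) through a median of 2014 to 2351.5 (KO 5). Every KO array was below every WT array. The mean was 3097 ± 496 (SD, n = 5) in WT and 1956 ± 350 (SD, n = 6) in KO, a log2 difference of -0.67 ± 0.14 (SE; limma, adjusted p = 0.0417) with a 95% interval from -0.96 to -0.37. On its dimmer probe set the WT signals were 1437.3, 1844.4, 1505.4, 1401.1 and 1302.6, and the KO signals ran from 524.6 through 820.0 to 1166.5. These groups did not overlap either, and the log2 difference was -0.82 ± 0.18 (SE), but the adjusted p in limma was 0.0506 and it did not pass.

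The call of Sult1d1 was fragile. The difference was negative in all 28 alternative fits on both probe sets, from -0.52 to -0.84 on the brighter one and from -0.64 to -1.04 on the dimmer, but it passed in only 14 and 10 of them. On the brighter probe set it did not pass without WT 1 (-0.66, adjusted p = 0.118), WT 2 (-0.58, 0.125), WT 3 (-0.67, 0.133), WT 4 (-0.68, 0.102), KO 1 (-0.67, 0.0768), KO 4 (-0.69, 0.0658) or KO 6 (-0.65, 0.0888). Among males alone the difference was -0.52 ± 0.11 (SE; limma, adjusted p = 0.0695), and with sex as a covariate, which leaves the same estimate because all WT preparations were male, the adjusted p was 0.152. Within the arrays of lower poly-A labelling controls (4 WT, 3 KO) it was -0.77, and within those of higher controls -0.56, a value that rests on 1 WT array. The mature OSN markers were also lower in the KO, and Sult1d1 stands in a table of mature OSN genes that the study used. The part of these neurons in the lower Sult1d1 signal was not tested.

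**Figure D1:**
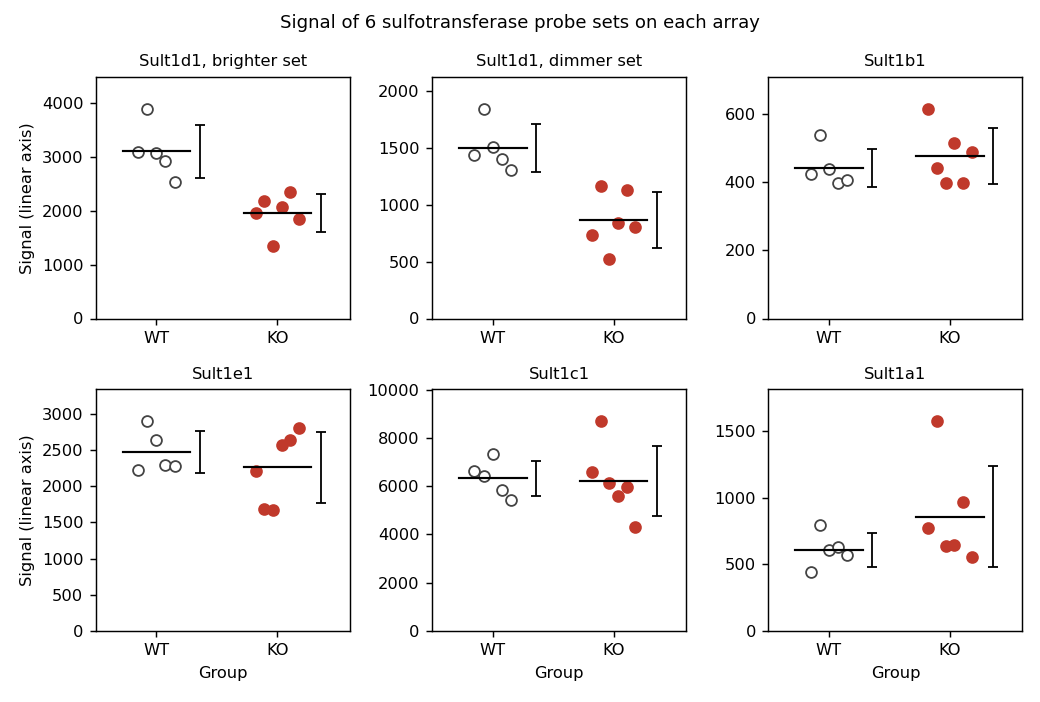
Signal of 6 probe sets of sulfotransferase genes on each array (linear axes from 0; open points, 5 WT arrays; filled points, 6 KO arrays; lines, group means; bars, mean ± SD). On both Sult1d1 probe sets all KO arrays lie below all WT arrays (at most 2351.5 against at least 2524.7, and 1166.5 against 1302.6), while the groups overlap for Sult1b1, Sult1e1, Sult1c1 and Sult1a1.

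Across all members, 0 probe sets were higher and 1 of 104 was lower (0.962%), against 0.244% higher and 0.211% lower among all probe sets tested, and a count of 1 does not set the members apart. At an unadjusted p under 0.05 there were 12 members (11.5%), beside 6.92% of all. WT and KO arrays did not overlap for 3 members, both Sult1d1 probe sets and Cyp11a1, which is 2.88% against 1.29% of all. The median difference of the members was 0.070, and 59.6% of them were positive against 60.4% of all. Of the 52 probe sets under the signal minimum, 0 passed when the filter was removed and 5 had an unadjusted p under 0.05.

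For most members the arrays bounded the difference. The 95% interval lay within 1 log2 unit of 0 for 95 of 104 probe sets and within 0.5 for 34. Of the 23 probe sets (16 genes) with a mean signal over 1000, 16 had an interval within 0.5, and the 21 that were not of Sult1d1 had differences from -0.31 to 0.31. These bounds hold for the scaling on GAPDH. Scaling on spiked hybridization controls moved the median difference of all probe sets from 0.047 to -0.11 and that of the members from 0.070 to -0.094.

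**Figure D2:**
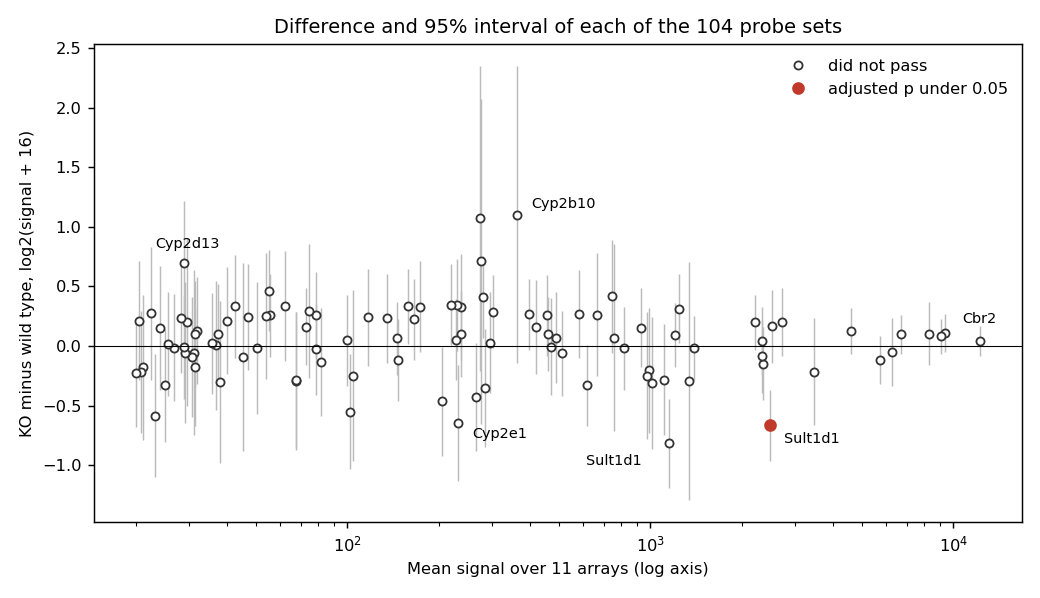
Log2 difference (KO minus WT) against mean signal (log axis) for the 104 probe sets, with 95% intervals from limma; the filled point passed. Except for Sult1d1, points above a signal of 1000 lie between -0.31 and 0.31, and the widest intervals in the middle range are those of Cyp2b10.

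Ranked by mean signal, the members spanned from 12259 down to 20.1. Probe sets differ in how well they bind their target, so this is an order of signals and not of transcript numbers. Cbr2 was first, followed by 2 probe sets of Gstm1 (9354 and 9105), then Cyp2f2 (8326), Gsta4 (6707), Sult1c1 (6266), Cyp2g1 (5725) and Gstm5 (4583). In all 23 members were above 1000, 40 between 100 and 1000, and 41 below 100. Neighbours in that order need not differ, since the signals of 1 probe set varied between arrays by more than the step to the next: Gsta4 ran from 6057 to 7328 and Sult1c1 from 4314 to 8713.

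**Figure D3:**
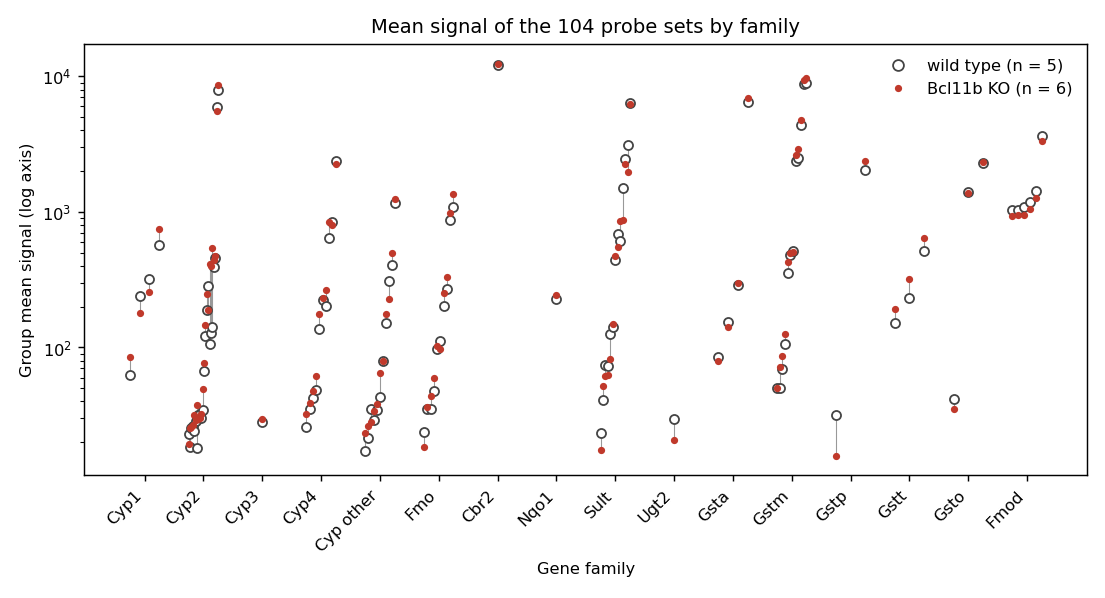
Group mean signal (log axis) of each of the 104 probe sets, by gene family (open, WT, n = 5; filled, KO, n = 6; a line joins the means of 1 probe set). "Cyp other" holds the P450 families beyond 4. The longest lines are those of Cyp2b10 (3 probe sets), of the dim Cyp2d13 and Gstp3, and of both Sult1d1 probe sets (3097 and 1956, 1498 and 867), while the means of Cbr2 (12063 and 12422) lie close together.

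P450s of family 2, the main xenobiotic-oxidizing family of the nose, had 22 probe sets of 17 genes, of which 0 passed in limma and 3 had an unadjusted p under 0.05. Cyp2g1, an olfactory P450, had WT signals of 5756.4, 5558.0, 6520.0, 6089.2 and 5884.2 and KO signals from 4710.5 through 5499 to 6451.7. The groups overlapped, and the log2 difference was -0.12 ± 0.095 (SE; limma, adjusted p = 0.941). Cyp2f2, which activates naphthalene in the airways, had a mean of 7911 ± 573 (SD, n = 5) in WT and 8671 ± 1985 (SD, n = 6) in KO, a difference of 0.10 ± 0.13 that became -0.071 under spiked control scaling. The KO arrays of Cyp2f2 ran wider than the WT arrays, from 6429.8 to 11700.1 against 7232.9 to 8598.7. A probe set shared by Cyp2a5 and Cyp2a4, which is no member, read 8930 ± 680 (SD, n = 5) and 8608 ± 2765 (SD, n = 6).

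Cyp2b10, a P450 that is induced in liver through the receptor Nr1i3, was the most uneven gene among the KO arrays and was singled out for that after its values were seen. Its 3 probe sets held ranks 1 to 3 of the 104 in SD over the KO arrays on the log2 scale, above 99.9% of all probe sets tested. On the brightest of them WT signals were 252.7, 101.7, 94.2, 90.9 and 172.5, and KO signals were 104.6, 1617.3, 87.1, 332.5, 1001.5 and 123.9 in the order KO 1 to KO 6. KO 2 and KO 5 were thus far above every WT array, KO 4 was somewhat above them, and KO 1, KO 3 and KO 6 lay within the WT range or under it. The log2 difference was 1.10 ± 0.59 (SE; limma, adjusted p = 0.812), with a 95% interval from -0.15 to 2.35, and the others had 1.07 ± 0.61 and 0.71 ± 0.65. Without KO 2 and KO 5 these 3 differences were 0.088 ± 0.33, 0.063 ± 0.37 and -0.34 ± 0.42 (SE), so the last turned its sign. These arrays were left out after their values were seen. They were the highest KO arrays on all 3 probe sets, so the differences had to fall.

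For other members, too, KO 2 and KO 5 were the highest of the KO arrays. Cyp4b1, a P450 of lung and nasal tissue that oxidizes fatty acids and furans, had WT signals from 531.7 to 813.8 and KO signals of 409.9, 1953.6, 258.8, 768.3, 1269.2 and 428.8. Its log2 difference was 0.070 ± 0.37 (SE), and without KO 2 and KO 5 it was -0.54, neither of which passed. Here too the difference had to fall when the highest KO arrays were left out. For 17 members (16.3%) KO 2 and KO 5 were the highest KO arrays, against 7.55% of all probe sets. They were probe sets of Cyp2b10, Cyp4b1, Cyp2e1, Cyp2f2, Cyp2j6, Cyp2d22, Cyp2u1, Cyp1a2, Sult1a1, Sult1d1, Gsta2, Gsta3 and Gstt3. The order is among KO arrays alone and need not mean a signal above WT. Both Sult1d1 probe sets read below every WT array on KO 2 and KO 5 (2172.1 and 2351.5, 1166.5 and 1131.3). The count of 17 was made after the pattern of Cyp2b10 was seen and is a description only.

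Some genes of nasal glands were high on the same KO arrays, and others of the list were not. Obp2a, an odorant-binding lipocalin, read 1089.8, 32.0, 28.9, 73.5 and 280.7 in WT and 31.2, 6322.1, 35.2, 778.9, 1792.4 and 15.5 in KO. Lcn11, another lipocalin, read 7923.9, 669.4, 64.9, 1423.1 and 5129.9 in WT and 2.5, 13265.3, 253.4, 8796.6, 12443.3 and 45.8 in KO. KO 2, KO 5 and KO 4, in that order, were the highest KO arrays for Obp2a and Cyp2b10 alike, and WT 1 and WT 5 were the highest WT arrays for both. KO 2 and KO 5 were the highest KO arrays for 9 of the 13 gland probe sets (10 genes), beside 7.55% of all probe sets tested. That count was made after the values were seen, and probe sets of 1 gene are not separate observations. Among the other 4, Muc5b, a mucin, was highest on KO 5 (1721.4) and KO 1 (1233.5), and 1 probe set of Sox9, a transcription factor, was lowest on KO 2 (226.4). Ltf, lactoferrin, was highest on KO 2 and KO 5 but, among WT arrays, on WT 3 (2264.2) and WT 5 (2197.8), with WT 1 at 1079.9. Of the whole gland list, 10 of 11 genes were measured and 0 of 13 probe sets passed in limma, with 1 at an unadjusted p under 0.05. Its mean log2 level ranged from 9.86 to 11.0 in WT and from 9.02 to 11.6 in KO, and the secreted Bpifa1 was bright on every array (15476.4 to 18153.3). Whether the amount of gland tissue in a preparation bears on these P450s was not tested.

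**Figure D4:**
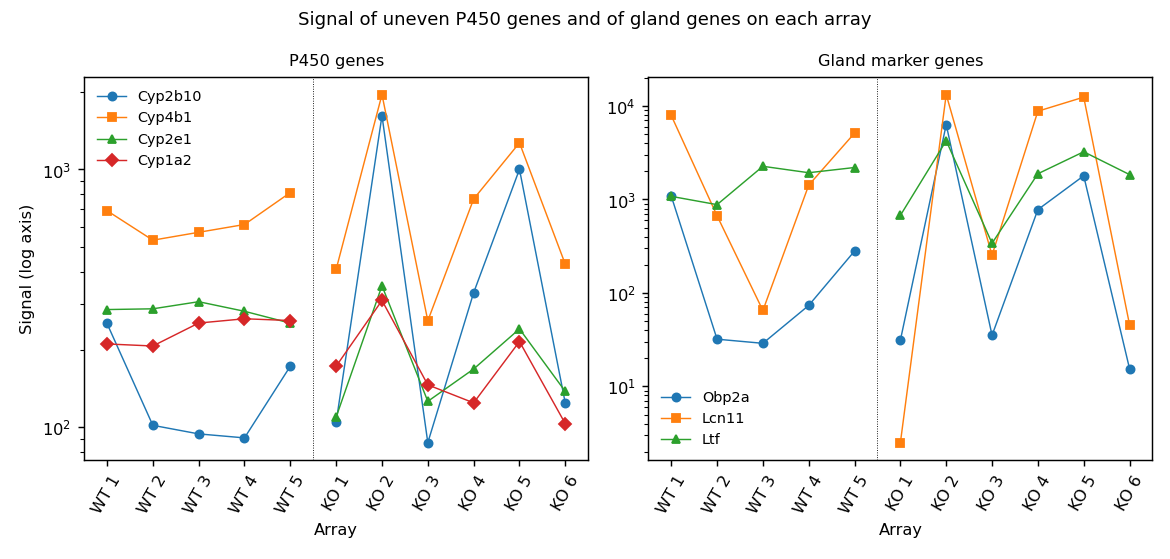
Signal (log axes) on each array of 4 P450 genes (left) and of the gland genes Obp2a, Lcn11 and Ltf (right); the dotted line divides WT from KO arrays. Cyp2b10, Cyp4b1, Obp2a and Lcn11 are highest on KO 2 and KO 5 (1617.3 and 1001.5 for Cyp2b10), and KO 1, KO 3 and KO 6 are low.

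Cyp2e1, which oxidizes ethanol and other small solvents, had the largest negative difference of the P450s. WT signals were 286.1, 288.0, 306.9, 281.7 and 253.4, and KO signals ran from 109.5 through 153 to 353.9. The array above the WT range was KO 2, and the other 5 KO arrays lay below every WT array. The log2 difference was -0.65 ± 0.23 (SE; limma, adjusted p = 0.439), which did not pass. Without KO 2 it was -0.84 (adjusted p = 0.0469), and without KO 2 and KO 5 -0.995 (adjusted p = 0.00647). The fit without KO 2 belongs to the series that dropped each array in turn, and it is named here for its result. KO 2 and KO 5 were left out together after their values were seen. These calls therefore carry no weight as support for a fall.

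In the other P450 families, 0 of 26 probe sets passed in limma, with 3 at an unadjusted p under 0.05. In family 1, which the aryl hydrocarbon receptor induces, Cyp1a2 had WT signals of 210.4, 206.6, 253.6, 263.5 and 259.4 and KO signals from 103.2 through 159 to 310.3, again highest on KO 2, a difference of -0.46 ± 0.22 (SE; limma, adjusted p = 0.712). Its neighbour Cyp1a1 had -0.35 ± 0.23, and Cyp1b1 had 0.26 ± 0.25 on its brighter probe set. Family 3 had 1 probe set, Cyp3a13, at a mean signal of 29.0. In family 4, Cyp4v3 and Cyp4f13 had differences of -0.087 ± 0.14 and 0.33 ± 0.15 (SE). Among steroid and retinoid P450s, Cyp11a1, the first enzyme of steroid synthesis, read 35.9 to 52.2 in WT and 52.7 to 78.3 in KO. These dim groups did not overlap, but the difference of 0.47 ± 0.16 (SE; limma, adjusted p = 0.424) did not pass. Cyp26b1, which breaks down retinoic acid, had -0.43 ± 0.21, Cyp39a1, a hydroxylase of oxysterols, had 0.26 ± 0.16, and Cyp20a1 had 0.096 ± 0.13. The dim Cyp2d13 had the largest positive difference outside Cyp2b10, 0.70 ± 0.24 (SE; limma, adjusted p = 0.419) at signals of 3.6 to 33.4 in WT and 26.1 to 55.7 in KO.

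No FMO or reductase probe set passed. The 10 FMO probe sets of 4 genes gave 0 calls in limma (1 at an unadjusted p under 0.05) and 8 positive differences on the GAPDH scaling. Of all probe sets tested 60.4% were positive on that scaling. Fmo2, an FMO of lung and airway, had 5 probe sets, and on the brightest its WT signals were 1046.4, 1351.0, 1074.3, 954.9 and 1022.1 and its KO signals 1052.9 to 1674.7 with a median of 1386. The difference was 0.31 ± 0.14 (SE; limma, adjusted p = 0.651), with a 95% interval from 0.023 to 0.61, and the other 4 probe sets ranged from -0.25 to 0.35. Fmo1 had 0.15 ± 0.16. Cbr2, a carbonyl reductase of airway epithelium, read 12063 ± 499 (SD, n = 5) in WT and 12422 ± 463 (SD, n = 6) in KO, a difference of 0.042 ± 0.059 (SE; limma, adjusted p = 0.978) whose sign turned under all 3 other scalings (-0.019 to -0.13). Nqo1, a quinone reductase known as a marker of the dorsal zone of the MOE, had WT signals of 265.5, 291.2, 236.1, 169.1 and 185.0 and KO signals from 194.4 through 248.5 to 297.8. The groups overlapped almost entirely, and the difference was 0.10 ± 0.17 (SE; limma, adjusted p = 0.985), with a 95% interval from -0.26 to 0.46. It became -0.064 under spiked control scaling. On tissue sections the study found no NQO1 protein in the ventral MOE of the KO, and RNA of the whole tissue does not show zones.

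The sulfotransferases, with 13 probe sets of 11 genes, held the 1 call described above. Of the 13 differences 4 were positive, beside 60.4% of all probe sets tested. Sult1c1, which sulfates phenols, had a mean of 6330 ± 726 (SD, n = 5) in WT and 6212 ± 1447 (SD, n = 6) in KO, a difference of -0.051 ± 0.13. Sult1a1, a phenol sulfotransferase, had the highest estimate, 0.42 ± 0.22 (SE; limma, adjusted p = 0.813), with KO 2 at 1579.6 and the others from 554.4 to 969.5 against 441.7 to 797.1 in WT. Sult2b1, which sulfates cholesterol, read 87.9 to 164.7 in WT and 46.1 to 121.4 in KO, a difference of -0.55 ± 0.23 (SE; limma, adjusted p = 0.606). Sult4a1, the SULT of brain with no settled substrate, had -0.33 ± 0.16 and -0.29 ± 0.27 on its probe sets.

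Sult1d1 lies between Sult1b1 and Sult1e1 in the order of protein-coding genes of the RefSeq table, with no other such gene between them. Sult1b1, a sulfotransferase of thyroid hormone and phenols, read 424.1, 536.4, 437.3, 396.5 and 405.6 in WT and 396.8 to 614.4 in KO, a difference of 0.099 ± 0.15 (SE; limma, adjusted p = 0.981). Sult1e1, the estrogen sulfotransferase, read 2233.3, 2907.2, 2641.8, 2296.9 and 2281.8 in WT and 1676.1 to 2809.7 in KO, a difference of -0.15 ± 0.14 (SE; limma, adjusted p = 0.960). Neither neighbour passed, and their groups overlapped. Whether the difference of Sult1d1 differs from theirs was not tested. The 250 bases before each annotated start are shown because this is the one stretch of adjacent members in which a call was made. They come from RefSeq (assembly GRCm38.p6), all on the minus strand and written 5′ to 3′ in the direction of the gene, and Sult1b1 has 2 starts, at chr5:87538196-87538445 and chr5:87536223-87536472, with Sult1d1 at chr5:87569007-87569256 and Sult1e1 at chr5:87591612-87591861.
Sult1b1, first start: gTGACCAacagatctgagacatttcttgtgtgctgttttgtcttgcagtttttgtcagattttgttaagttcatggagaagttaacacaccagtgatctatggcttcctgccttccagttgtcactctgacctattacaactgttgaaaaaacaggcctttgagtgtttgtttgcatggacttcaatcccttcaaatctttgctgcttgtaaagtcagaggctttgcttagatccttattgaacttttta
Sult1b1, second start: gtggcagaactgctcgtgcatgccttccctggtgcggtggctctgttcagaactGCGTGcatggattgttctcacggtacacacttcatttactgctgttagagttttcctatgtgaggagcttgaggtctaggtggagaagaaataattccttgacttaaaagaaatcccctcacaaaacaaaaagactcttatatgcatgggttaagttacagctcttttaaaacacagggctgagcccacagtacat
Sult1d1: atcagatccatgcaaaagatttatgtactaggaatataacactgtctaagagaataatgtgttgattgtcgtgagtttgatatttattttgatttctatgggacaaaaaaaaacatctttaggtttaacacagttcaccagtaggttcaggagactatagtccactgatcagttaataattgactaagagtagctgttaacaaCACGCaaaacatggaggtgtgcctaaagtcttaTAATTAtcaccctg
Sult1e1: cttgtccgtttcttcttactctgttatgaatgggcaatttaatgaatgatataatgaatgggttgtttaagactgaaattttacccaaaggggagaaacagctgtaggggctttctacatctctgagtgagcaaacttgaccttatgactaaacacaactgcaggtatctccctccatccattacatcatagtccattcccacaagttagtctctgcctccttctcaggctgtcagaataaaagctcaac
Capitals mark matches on either strand to any of 7 short motifs that were searched: GCGTG (core of the aryl hydrocarbon receptor site), TGACNNNGC (core of the antioxidant response element), CCCNNGGG (core of the Ebf site), TAATTA (homeodomain core), the Hnf1 palindrome, TGACCA (a site of Bcl11a, the paralog of Bcl11b) and TATAAA. Sult1d1 held a GCGTG and a TAATTA match, the first start of Sult1b1 a TGACCA match, its second start a GCGTG match, and Sult1e1 none. Of 32851 promoters in the table, GCGTG was in 28.2%, TAATTA in 4.84% and TGACCA in 11.4%, and among 72 promoters of 60 member genes the shares were 26.4%, 5.56% and 8.33%. TATAAA was in 12.4% of all and 22.2% of member promoters, TGACNNNGC in 10.2% and 4.17%, CCCNNGGG in 11.8% and 4.17%, and the Hnf1 site in 0.00913% and in 0 of the members. A match here is a string of letters, and the arrays measured no binding to it.

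UGTs were covered thinly by members, since most of their probe sets name several genes. The sole member, Ugt2b36, was dim (mean signal 24.95; difference -0.33 ± 0.23). The shared probe set of Ugt2a1 and Ugt2a2, UGTs known from olfactory tissue, read 3892 ± 498 (SD, n = 5) in WT and 4376 ± 820 (SD, n = 6) in KO, a difference of 0.16 ± 0.13 (SE; limma, adjusted p = 0.944). The 3 shared probe sets of Ugt1a genes had differences from -0.11 to -0.042. Of the shared family probe sets 7 were tested and none passed in limma.

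Among the GSTs, which couple glutathione to electrophiles, 0 of 24 probe sets of 17 genes passed in limma, with 2 at an unadjusted p under 0.05. Gstm1, with WT signals of 8140.4, 9407.0, 9591.0, 8831.2 and 8793.7 and KO signals from 8666.1 through 9640 to 10999.3, had a difference of 0.11 ± 0.076 (SE; limma, adjusted p = 0.914) on its brightest probe set, and from 0.069 to 0.17 on the other 3. The 7 Gstm genes measured lie next to each other in the RefSeq order, and probes may not separate these close relatives. Of their 12 differences 10 were positive on the GAPDH scaling, from -0.062 to 0.34 over all 12. On that scaling 60.4% of all probe sets tested were positive. Gsta4, which detoxifies lipid aldehydes, had 0.098 ± 0.078, and Gstm5 had 0.12 ± 0.092. Under spiked control scaling the signs turned for Gsta4, Gstm5 and the 2 brightest probe sets of Gstm1. Gstp1, the main pi-class GST, had 0.20 ± 0.11, and Gsto1, an omega-class enzyme, had 0.044 ± 0.13 and -0.018 ± 0.13.

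All 3 theta-class probe sets, of another GST class, had positive differences, on the GAPDH scaling and on the 3 others tried. Gstt1 had WT signals of 215.6, 223.6, 261.9, 220.0 and 240.1 and KO signals from 244.0 through 305 to 462.8. Only KO 2 and KO 5 lay within the WT range, and the difference was 0.41 ± 0.17 (SE; limma, adjusted p = 0.572). Gstt2 and Gstt3 had 0.33 ± 0.18 and 0.27 ± 0.18. The dim Gstp3 had -0.58 ± 0.24 (SE; limma, adjusted p = 0.612) at signals of 19.0 to 53.6 in WT and 4.6 to 25.7 in KO.

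**Figure D5:**
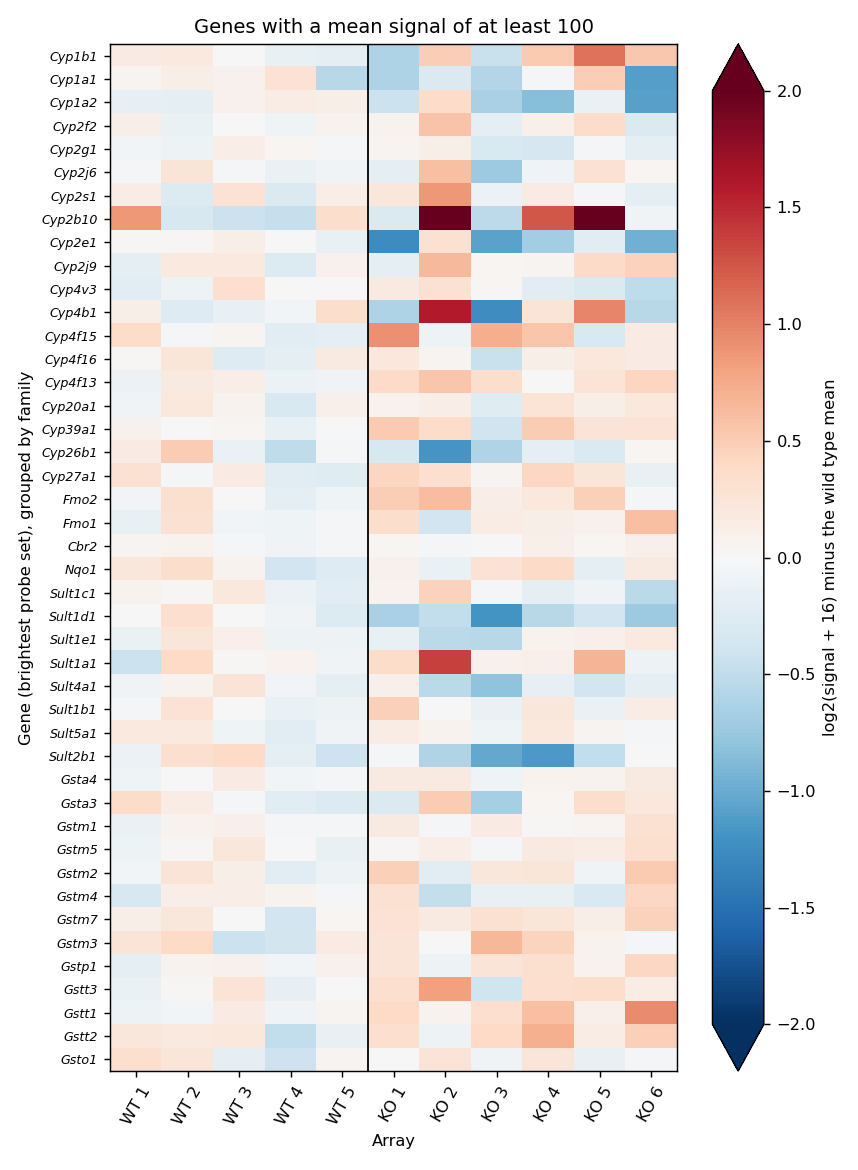
Log2(signal + 16) minus the WT mean of each gene on each array (columns), for the brightest probe set of the 44 genes with a mean signal of at least 100 (rows, by family; Fmod left out). Colour runs from -2 to 2, and the 2 values beyond it are Cyp2b10 on KO 2 and KO 5; Sult1d1 is below the WT mean on all 6 KO arrays, and Cbr2 is near 0 on every array.

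Other genes of the pathway, taken from lists of receptors, electron donors, further oxidizing and conjugating enzymes, glutathione supply and carriers, showed 0 calls in either direction among 156 probe sets of 86 measured genes (99 listed), with 11 at an unadjusted p under 0.05. Of the receptor list 13 of 15 genes were measured, with a median difference of 0.0048. Over all these lists together, the smallest p were those of Mgst2, Aox3 and Tpmt, which are enzymes and not of the receptor list. Mgst2, a microsomal GST of leukotriene synthesis, read 133 ± 13.3 (SD, n = 5) in WT and 88.1 ± 17.0 (SD, n = 6) in KO (-0.53 ± 0.16, limma adjusted p = 0.269). Aox3, an aldehyde oxidase, had 0.45 ± 0.15 (limma adjusted p = 0.359). Tpmt, a thiopurine methyltransferase, had 0.55 ± 0.19 and 0.50 ± 0.18 on 2 of its 4 probe sets (limma adjusted p = 0.410 and 0.483). Arrays of the groups did not overlap for Mgst2, with 110.8 to 144.2 in WT and 66.1 to 109.3 in KO.

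Markers of other cell types bear on how the tissue pieces compared. Of the liver list 4 of 8 genes were measured, with Alb at 49.6 or less and Ahsg at 64.6 or less on every array, and Ttr, which choroid plexus also makes, had positive differences of 2.78 to 3.12 on 4 probe sets, none of which passed (limma, adjusted p = 0.0663 to 0.124) although no groups overlapped. Its highest signals were on KO 3, KO 2 and KO 5. The erythroid list had 4 of 7 probe sets higher in the KO, with means of 6.71 to 7.19 in WT and 7.88 to 8.33 in KO. All 4 were of the globin genes Hbb-y and Hbb-bh1, with differences of up to 2.22. The other erythroid genes, Slc4a1 (0.45 and 0.34) and Alas2 (0.17), had smaller positive differences and overlapping groups. None of these passed (limma, adjusted p = 0.689, 0.874 and 0.943). Respiratory ciliated and secretory markers averaged 7.96 to 8.41 in WT and 8.19 to 8.62 in KO. Horizontal basal cell markers averaged 8.57 to 8.96 and 8.33 to 9.05, and immature OSN markers 11.1 to 11.4 and 11.0 to 11.4. There were 0 calls in these 3 lists (1, 2 and 2 at an unadjusted p under 0.05 in limma). Those were Scgb3a1 (0.57), Krt15 (-1.22) and Cav1 (0.41), and Crmp1 (0.33) and 1 probe set of Dpysl5 (-1.45). The other Dpysl5 probe set had 0.13. Groups did not overlap for Krt15 and the Dpysl5 probe set with -1.45 (limma, adjusted p = 0.134 and 0.0508). Of the zone markers, the ventral Ncam2 was lower on 1 probe set. The part of these marker differences in the values above was not tested.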

How the data were processed

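Signal intensities of 11 Affymetrix Mouse Genome 430 2.0 arrays were used as deposited. Per the labels and the study's methods, the authors labelled RNA in 2 amplification cycles, computed each intensity in GCOS (version not given in the sources used here) and scaled it linearly to a GAPDH probe set. Priming from the poly-A tail in each cycle favours 3' ends, so RNA quality can move signals. Groups came from the sample titles and labels.

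Here, 64 control probe sets and those with a mean signal under 20 were left out, and log2(signal + 16) was fitted on genotype with limma 3.58.1 (lmFit, eBayes with an intensity trend) in R 4.3.3, with Benjamini-Hochberg adjustment over 33662 probe sets. Python 3.11.15, scipy 1.17.1 and matplotlib 3.10.9 did the rest. The fit was tested on simulated data with independent normal noise for each probe set. Such data hold no array differences shared by many probe sets, so the test does not bear on those. Genes were named from the platform annotation, which gives 1 symbol for 34958, several for 932 and none for 9211 of 45101 probe sets, and all 74 member genes matched RefSeq by gene ID and symbol.

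Members and lists were chosen with earlier results of these data known. Named genes were all called members, all probe sets of Nqo1 and Cbr2, in each family the 3 probe sets of highest signal and the 3 of smallest p, and the 4 smallest p among other pathway genes (51 member probe sets of 42 genes). Cyp2b10, Sult1a1, Sult1b1, Sult4a1, Gstm2, Gstm4 and Cyp2s1, the genes at the signal minimum and those listed for KO 2 and KO 5 were added after their values were seen. Alternatives were other scalings, pseudocounts of 1 and 64, no filter or a minimum of 100, no trend, array weights, males only, sex, the replicate block, the poly-A split, left-out arrays, gene means, and no Fmod.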

Additional observations from a re-analysis of the deposited data

Results flagged for a closer look

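In 14 of 208 groups of arrays (104 probe sets, WT and KO), 1 array stood apart, its gap to the next array being a larger share of the group's range than Dixon's critical value allows; chance gives about 1 in 20 groups. Genes are named once for each probe set. Gstm1 had a ratio of 0.744 in WT, with WT 1 at 7910.2 against 8866.9 to 9222.4 on the others. Gstm1 had a ratio of 0.84 in WT, with WT 2 at 3244.7 against 2074.3 to 2228.4 on the others. Fmod had a ratio of 0.759 in WT, with WT 2 at 1318.1 against 904.1 to 990.4 on the others. Fmo1 had a ratio of 0.746 in WT, with WT 2 at 1065.9 against 782.8 to 846.9 on the others. Cyp2j6 had a ratio of 0.731 in WT, with WT 2 at 549.5 against 417.9 to 449.9 on the others. Cyp39a1 had a ratio of 0.719 in KO, with KO 3 at 305.2 against 490.8 to 589.7 on the others. Cyp1a1 had a ratio of 0.731 in WT, with WT 5 at 207.8 against 326.1 to 384.0 on the others.

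Cyp4f16 had a ratio of 0.754 in KO, with KO 3 at 157.6 against 230.3 to 260.0 on the others. Cyp4f16 had a ratio of 0.629 in KO, with KO 3 at 47.1 against 60.6 to 69.9 on the others. Cyp26a1 had a ratio of 0.759 in WT, with WT 1 at 11.8 against 36.8 to 48.7 on the others. Cyp2c68 had a ratio of 0.741 in WT, with WT 4 at 17.1 against 31.7 to 38.2 on the others. Cyp4f39 had a ratio of 0.767 in KO, with KO 2 at 1.2 against 30.6 to 47.1 on the others. Cyp2c54 had a ratio of 0.849 in WT, with WT 5 at 36.7 against 23.1 to 24.9 on the others. Cyp2d40 had a ratio of 0.722 in WT, with WT 5 at 6.6 against 22.8 to 31.8 on the others. No cause was tested.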

How the results depend on the processing

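At 33662 probe sets the alternatives kept the direction of Sult1d1 and moved its call. Over all probe sets 153 passed in limma, and 293 passed with quantile normalization, 290 with spiked control scaling, 345 with array weights, 91 with the replicate block, 53 within the lower and 6 within the higher poly-A arrays, 284 without KO 2 and KO 3 (the highest GAPDH 3'/5' ratios) and 254 without KO 2 and KO 5 (the highest Obp2a signals). Leaving out single arrays gave 85 to 213, with the lowest counts without WT 3 (85) and WT 5 (97). Of the members, 1 passed, against 2 with array median scaling, quantile normalization, spiked control scaling, a pseudocount of 64, array weights or without KO 2 and KO 3, and 3 without KO 2 and KO 5. It was 0 with no filter, without the intensity trend, with males only, sex as a covariate or the replicate block, and within either poly-A side, and 0 to 3 when single arrays were left out, with 3 without KO 2. All these calls were of Sult1d1 and, without KO 2 or without KO 2 and KO 5, of Cyp2e1. The median of the members ran from -0.094 to 0.12. Leaving out KO 2 and KO 3, KO 2 and KO 5, or Fmod was chosen after seeing the data. The replicate numbers did not pair the arrays, as deviations of same-numbered arrays correlated between -0.28 and 0.0085, and the block fit takes no information from KO 6, which has no WT of its number. The cause of these moves was not tested.

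Of 61 named member probe sets, 31 kept their sign under every alternative and 30 did not, and none of the 99 values of the other sign passed. Among 1696 values, 12 passed where the reported one had not, on the dimmer Sult1d1 probe set (10) and Cyp2e1 (2). Where several probe sets of a gene are meant, the gene is named once for each. With array median scaling the difference was -0.019 for Cbr2, -0.017 for Gsto1 and -0.032 for Gsta3. With quantile normalization the difference was -0.022 for Cbr2, -0.020 for Gsto1 and -0.036 for Gsta3. With spiked control scaling the difference was -0.13 for Cbr2, -0.064 for Gstm1, -0.093 for Gstm1, -0.071 for Cyp2f2, -0.078 for Gsta4, -0.050 for Gstm5, -0.13 for Gsto1, -0.077 for Cyp20a1, -0.018 for Fmo1, -0.10 for Cyp4b1, -0.070 for Sult1b1, -0.013 for Cyp2s1, -0.14 for Gsta3 and -0.064 for Nqo1. With a pseudocount of 64 the difference was 0.00068 for Cyp2j6 and 0.0026 for Cyp3a13. With array weights the difference was 0.037 for Gsto1, 0.011 for Cyp4v3 and 0.048 for Cyp2j6. With males only, and equally with sex as a covariate, the difference was 0.070 for Sult1c1, 0.096 for Gsto1, 0.051 for Cyp4v3, 0.16 for Cyp2j6 and 0.0086 for Gsta2. With the replicate block the difference was 0.048 for Sult1c1, 0.0046 for Cyp4v3 and -0.011 for Gsta3. With the poly-A split as a covariate the difference was 0.023 for Sult1c1, 0.043 for Cyp4v3, -0.0082 for Cyp4b1, -0.090 for Gsta3 and 0.053 for Cyp3a13. Within the lower poly-A arrays the difference was 0.18 for Sult1c1, 0.11 for Cyp4v3, -0.026 for Cyp20a1, 0.042 for Cyp4v3, -0.061 for Cyp4b1, -0.15 for Cyp1b1, -0.059 for Gsta3, 0.032 for Gsta3, -0.028 for Cyp1b1 and 0.18 for Cyp3a13. Within the higher poly-A arrays the difference was -0.064 for Cyp2f2, 0.26 for Sult1e1, -0.29 for Gsto1, 0.31 for Gstm4, 0.14 for Cyp2j6, -0.16 for Cyp2s1, -0.16 for Gsta3, -0.10 for Nqo1, -0.22 for Cyp4f15 and 0.77 for Sult4a1. Without KO 2 and KO 3 the difference was 0.051 for Sult1e1, 0.058 for Gsto1, 0.064 for Gstm4, 0.023 for Cyp2j6 and 0.079 for Sult4a1. Without KO 2 and KO 5 the difference was -0.077 for Cyp2f2, -0.54 for Cyp4b1, -0.0011 for Cyp1b1, 0.10 for Gstm4, -0.17 for Gsta3, -0.34 for Cyp2b10 and 0.034 for Gsto2. When single arrays were left out, the differences that crossed 0 ranged from -0.15 to 0.048 for Sult1c1, -0.059 to 0.12 for Gsto1, -0.068 to 0.059 for Gsto1, -0.15 to 0.11 for Cyp4v3, -0.23 to 0.33 for Cyp4b1, -0.16 to 0.020 for Gstm4, -0.13 to 0.14 for Cyp2j6, -0.068 to 0.17 for Gsta3 and -0.19 to 0.19 for Cyp3a13. Signals near the pseudocount carry little precision, and the number of arrays limits it throughout.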
